A study of Mus musculus with 10 samples.

Results

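Chemokines are small secreted proteins that steer migrating cells, and their receptors are G protein-coupled proteins carried mostly by leukocytes. The genes described here are every gene whose symbol starts with Ccl, Cxcl, Cx3cl, Xcl, Ccr, Cxcr, Cx3cr or Xcr followed by a number, read from probe sets annotated to 1 gene symbol, with the probe set of the highest mean standing for its gene. This gave 49 genes of 12393 measured: 18 CC ligands, 12 CXC ligands, 2 CX3C and XC ligands and 17 receptors. They had 66 probe sets in all, and 14 genes had more than 1. A further 4 probe sets, annotated to families of Ccl19, Ccl21 or Ccl27 copies, matched several genes and gave no member.

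RNA was hybridised to 10 Affymetrix mouse 430A 2.0 arrays, 2 for each of 5 groups of intestinal epithelial cells from C57BL/6 mice. DBZ Sec-Pro were crypt secretory progenitors from mice given dibenzazepine, an inhibitor of Notch signalling, and Rbpj Sec-Pro were crypt secretory progenitors from mice with Rbpj, the DNA-binding partner of Notch, deleted. ENT were villus enterocytes and Ent-Pro crypt enterocyte progenitors, both from Atoh1-/- mice, which the labels describe as having no secretory cells, so both groups lacked that lineage by design. ISC were Lgr5+ stem cells from Lgr5-eGFP-Cre mice, and they were the only group purified by flow cytometry. Crypts were released with 5 mM EDTA over 50 min and villus cells with 5 mM EDTA over 25 min, without sorting. The drug dose, the driver of the Rbpj and Atoh1 deletions and the ages of the mice are not given in the sources used here. Separate animals for the arrays of a group are not stated, and the p-values therefore cover only the spread among these arrays, perhaps technical in part.

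In the intestine, epithelial cells release some chemokines constantly and others after stimulation by microbes or cytokines. Ccl25 and Ccl28 are known for drawing lymphocytes that carry Ccr9 and Ccr10 to mucosal tissue, Ccl20 attracts cells carrying Ccr6, and Cx3cl1 and Cxcl16 are made as membrane-bound forms that are cut loose by proteases. Other chemokines, Ccl5 and Xcl1 among them, are made mainly by activated lymphocytes, including the intraepithelial lymphocytes that sit between epithelial cells. An unsorted epithelial preparation can hold RNA of both kinds of cell. In such bulk samples, fewer cells of a type and less RNA per cell cannot be told apart.

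The labels were checked first. Atoh1, the transcription factor of the secretory lineage, read 11.80 and 11.85 on the log2 scale in DBZ Sec-Pro, 10.40 and 10.78 in Rbpj Sec-Pro, 4.97 and 5.18 in ENT, 5.75 and 5.78 in Ent-Pro and 7.68 and 7.80 in ISC. Rbpj read 6.74 and 6.62 in Rbpj Sec-Pro, below the other groups. Whether the probe sets of Atoh1 and Rbpj lie in the deleted parts is not given in the sources used here. Lgr5 was highest in ISC at 11.36 and 11.06. The mean of 8 epithelial markers lay between 12.88 and 13.20 on every array, while the mean of 18 pan-leukocyte and T cell markers (all 18 measured) read 7.39 and 8.33 in DBZ Sec-Pro, 8.95 and 6.93 in Rbpj Sec-Pro, 7.82 and 8.04 in ENT, 6.46 and 6.27 in Ent-Pro and 5.73 and 5.85 in ISC. Rbpj Sec-Pro replicate 1 and DBZ Sec-Pro replicate 2 therefore stood above their partners in leukocyte markers. The Rbpj Sec-Pro arrays differed in other ways too, with Lgr5 at 6.31 and 8.61 on replicates 1 and 2. Their means were 7.51 and 9.33 for 3 stem cell markers and 6.53 and 9.05 for 5 tuft cell markers. In that pair, leukocyte, stem cell and tuft cell differences cannot be told apart, also where the leukocyte marker mean is used as a covariate. Ptprc, the common leukocyte antigen CD45, was under the near-background bound on both ISC arrays (4.40 and 4.56). The 10 macrophage and dendritic cell markers averaged 5.72 to 6.71, and Csf1r stood out on Rbpj Sec-Pro replicate 1 at 8.35. The ISC arrays also differed in 3′ to 5′ signal, whose source, RNA quality or another, was not tested. The 3′ probe set of Gapdh exceeded the 5′ one by 1.61 and 1.81 in ISC, against -0.02 to 0.32 on the other arrays.

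Near background was set at 1 log2 unit above the mean of the probe sets for bacterial Trp transcripts, which no mouse sample holds, or 4.62 to 4.82 by array. By this bound 39 of the 49 genes were above background on at least 1 array, 22 were above it on all 10 and 10 on none. A level of 6 was reached on no array by 27 genes, among them 13 of the 17 receptors. Levels of different probe sets were not ranked against each other. Ccl25 spanned 11.39 to 12.79, a narrow range beside Ccl6 (4.68 to 13.12) and Ccl9 (5.12 to 13.64).

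**Figure D1:**
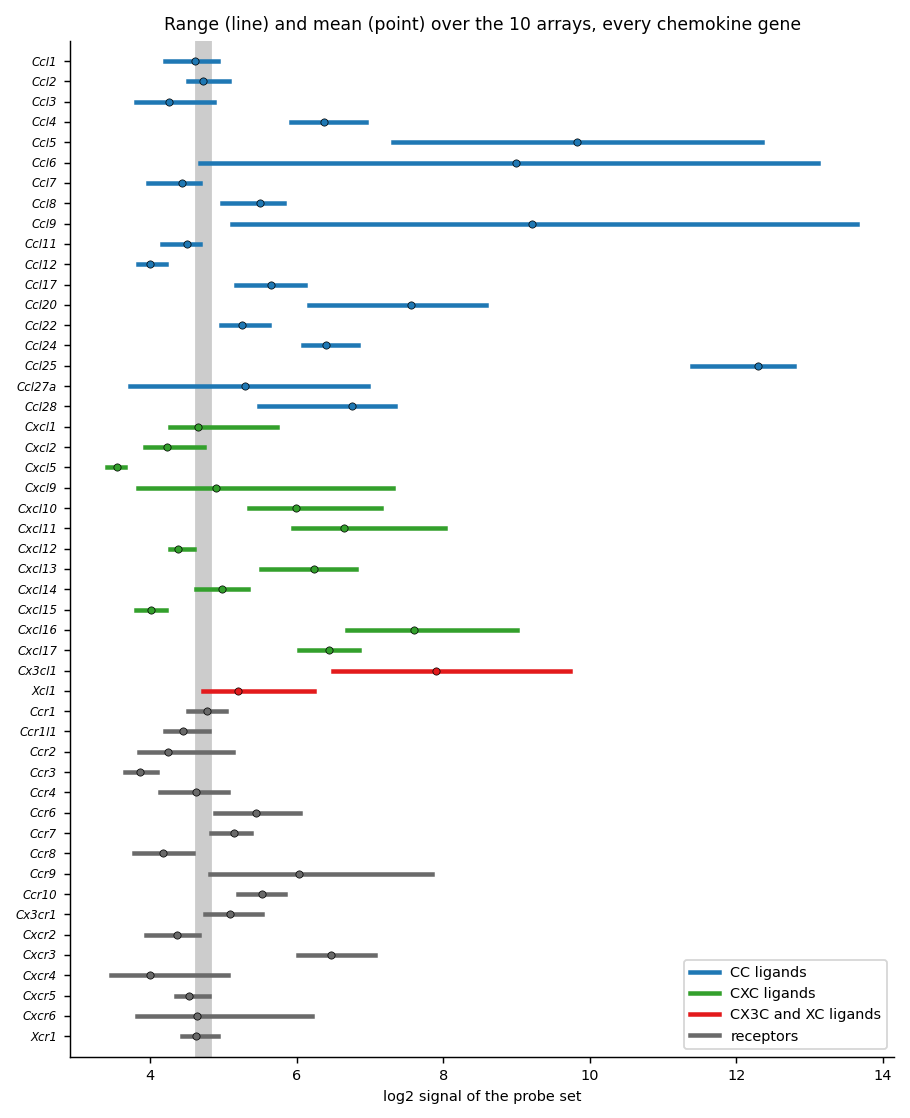
Lines run from the lowest to the highest log2 signal of each of the 49 genes over the 10 arrays and points mark the mean, with genes grouped by role and the grey band marking the near-background bound of 4.62 to 4.82. Ccl6 and Ccl9 have the longest lines, Ccl25 lies between 11.39 and 12.79, and most receptor lines lie under 6.

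The genes were compared in 5 contrasts, each from 1 limma fit over all genes with Benjamini-Hochberg adjustment. A gene was called at an adjusted p under 0.05. In all, 20 of the 49 genes were called in at least 1 contrast and 29 in none.

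The CC ligands Ccl6 and Ccl9 separated the secretory progenitors from the enterocyte progenitors. Ccl6, a mouse CC chemokine related to macrophage inflammatory proteins, read 12.94 and 13.12 in DBZ Sec-Pro, 11.38 and 12.73 in Rbpj Sec-Pro, 4.83 and 4.89 in ENT, 5.01 and 4.68 in Ent-Pro and 9.84 and 10.44 in ISC. All 4 Sec-Pro arrays were above both ISC arrays, and the arrays of Atoh1-/- mice sat at the background bound. Ccl6 was 207.3-fold higher in Sec-Pro than in Ent-Pro (log2 difference 7.70 ± 0.33, SE; adjusted p = 2.02e-06) and 5.29-fold higher in Sec-Pro than in ISC (adjusted p = 4.40e-04). In Ent-Pro it was 39.2-fold lower than in ISC (adjusted p = 7.93e-05). Because its Ent-Pro arrays lay near background, the size of the fold against them is less certain than its direction.

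Ccl9, a ligand of Ccr1 also known as macrophage inflammatory protein 1 gamma, read 13.38 and 13.64 in DBZ Sec-Pro, 11.50 and 12.32 in Rbpj Sec-Pro, 6.28 and 6.53 in ENT, 5.51 and 5.12 in Ent-Pro and 8.55 and 9.26 in ISC. The order was DBZ Sec-Pro, Rbpj Sec-Pro, ISC, ENT and Ent-Pro, and no array of a group overlapped those of the next. Ccl9 was 169.0-fold higher in Sec-Pro than in Ent-Pro (log2 difference 7.40 ± 0.27, SE; adjusted p = 7.43e-07), 13.99-fold higher in Sec-Pro than in ISC (adjusted p = 2.10e-05) and 12.08-fold lower in Ent-Pro than in ISC (adjusted p = 1.88e-04). It was 3.03-fold higher in DBZ Sec-Pro than in Rbpj Sec-Pro (adjusted p = 0.0126), which was no longer called without DBZ Sec-Pro replicate 2 (adjusted p = 0.0903). A second Ccl9 probe set gave the same order of groups for the secretory and stem cell arrays, at 12.36 and 12.23 in DBZ Sec-Pro, 10.02 and 11.07 in Rbpj Sec-Pro and, in ISC, 5.45 and 5.82. It read 4.73 and 4.76 in ENT and 4.00 and 4.27 in Ent-Pro, near or under the near-background bound. Its ISC values lay well below those of the first probe set, so the Ccl9 folds that involve ISC depend on the probe set. The second Ccl6 probe set read 11.69 and 11.71 in DBZ Sec-Pro, 9.81 and 11.29 in Rbpj Sec-Pro, 4.99 and 4.73 in ENT, 5.17 and 5.05 in Ent-Pro and 8.54 and 9.16 in ISC.

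The replicates of a group did not order Ccl6 and Ccl9 by their leukocyte markers in Rbpj Sec-Pro. Rbpj Sec-Pro replicate 1 had 2.02 more of the leukocyte marker mean than replicate 2, but 1.35 less Ccl6 and 0.82 less Ccl9 on the log2 scale. DBZ Sec-Pro replicate 2, also high in those markers, had 0.17 more Ccl6 and 0.27 more Ccl9 than replicate 1. With the leukocyte marker mean added to the fit as a covariate, an alternative chosen after seeing the data, the Sec-Pro minus Ent-Pro difference was 8.42 for Ccl6 (adjusted p = 1.44e-05) and 7.76 for Ccl9 (adjusted p = 2.13e-05). Without the 2 Sec-Pro arrays high in leukocyte markers it was 7.99 for Ccl6 and 7.54 for Ccl9. Goblet markers (6 measured) averaged 13.38 and 13.56 in DBZ Sec-Pro, 13.11 and 13.14 in Rbpj Sec-Pro, 6.22 and 6.43 in ENT, 6.19 and 6.13 in Ent-Pro and 10.72 and 10.87 in ISC, with DBZ Sec-Pro highest, then Rbpj Sec-Pro and ISC, as for Ccl6. Paneth markers (4 measured) had the same order, at 13.63 and 13.83 in DBZ Sec-Pro, 13.10 and 12.86 in Rbpj Sec-Pro and, in ISC, 11.15 and 11.85. Paneth signal did not fall to background in Atoh1-/- mice, at 7.17 and 9.38 in ENT and 8.81 and 8.99 in Ent-Pro. The order also held for 5 enteroendocrine markers, at 12.03 and 11.84 in DBZ Sec-Pro, 11.46 and 10.86 in Rbpj Sec-Pro and, in ISC, 9.42 and 9.77. Enteroendocrine markers averaged 5.21 and 5.52 in ENT and 6.34 and 6.47 in Ent-Pro. Of the 10 macrophage and dendritic cell markers, Lyz2 was called in the direction of Ccl6 and Ccl9 in 2 of the 3 contrasts, at 18.7-fold higher in Sec-Pro than in Ent-Pro (adjusted p = 4.25e-04) and 12.4-fold lower in Ent-Pro than in ISC (adjusted p = 0.00142). Cd68 was lower in Ent-Pro than in ISC (log2 difference -2.17, adjusted p = 0.00364) and lower in Sec-Pro than in ISC (log2 difference -1.87, adjusted p = 0.00172). Cd14 was lower in Sec-Pro than in either of the others (2.20-fold against Ent-Pro and 2.25-fold against ISC). The other 7 were called in none of the 3 contrasts, and the part of macrophages in the Ccl6 and Ccl9 results was not tested. Between the Rbpj Sec-Pro replicates, 1 minus 2, the list means differed by -0.03 for goblet, 0.23 for Paneth and 0.60 for enteroendocrine markers. For tuft and stem cell markers they differed by -2.52 and -1.82. Between the DBZ Sec-Pro replicates, 2 minus 1, these 5 differences were 0.17, 0.20, -0.20, 0.01 and -0.23 in that order. The part of these cells in the Ccl6 and Ccl9 values was not tested.

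Over the 10 arrays, which share groups and RNA preparations, the genes closest to Ccl6 in log2 level were Fcgbp, Neurog3, Tff3, Chga and Spink4, with Pearson r of 0.995, 0.992, 0.988, 0.982 and 0.981. Fcgbp and Tff3 are goblet cell products, Neurog3 is the transcription factor of endocrine progenitors and Chga is an endocrine granule protein. Closest to Ccl9 were Spdef, the goblet cell transcription factor, Rap1gap, Ramp1, Tent5c and Bambi, with r of 0.990, 0.985, 0.984, 0.984 and 0.984. Such values follow mainly from the 5 group means.

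Ccl9 and Ccl6 are next to each other on mouse chromosome 11, where the order of genes is Heatr9, Ccl5, Ccl9, Ccl6, Ccl3, Ccl4 and Wfdc17. Their promoters are shown because they are neighbours that moved together. Each window runs from 250 bases before to 50 bases after the RefSeq start on the minus strand of GRCm38.p6, at chr11:83578587-83578886 for Ccl9 and chr11:83593038-83593337 for Ccl6. Capitals mark the 4 runs of at least 10 bases that the windows share.
Ccl9: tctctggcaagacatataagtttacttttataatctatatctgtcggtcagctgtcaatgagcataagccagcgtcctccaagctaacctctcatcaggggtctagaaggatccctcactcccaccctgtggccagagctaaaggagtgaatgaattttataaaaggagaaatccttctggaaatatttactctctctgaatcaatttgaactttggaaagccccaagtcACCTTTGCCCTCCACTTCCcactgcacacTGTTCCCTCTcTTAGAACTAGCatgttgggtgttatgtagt
Ccl6: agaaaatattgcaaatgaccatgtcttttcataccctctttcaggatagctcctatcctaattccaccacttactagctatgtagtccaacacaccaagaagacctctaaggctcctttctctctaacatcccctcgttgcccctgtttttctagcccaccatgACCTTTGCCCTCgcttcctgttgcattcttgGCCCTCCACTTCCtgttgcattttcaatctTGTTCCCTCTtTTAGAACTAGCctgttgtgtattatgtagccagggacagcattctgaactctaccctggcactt
The longest shared run, GCCCTCCACTTCC, has 13 bases, and the others are ACCTTTGCCCTC, TTAGAACTAGC and TGTTCCCTCT. In the Ccl9 window the longest overlaps ACCTTTGCCCTC. Of 32850 other RefSeq promoters, 8.77% shared a run of at least 10 bases with Ccl6 and 66 shared a run of 13 bases. The promoters of 1 other chromosome were left out of all promoter counts given here. The longest run shared with the neighbouring Ccl3 was 8 bases for both. The E-box form CAGCTG, searched on both strands, occurred 1 time in the Ccl9 window and 0 times in that of Ccl6, and 16.3% of 32851 promoters held it. TGGGAA, the core of the Rbpj site, searched on both strands, occurred 1 time in the Ccl9 window and 0 times in the Ccl6 window, and 25.6% of promoters held it. No match says only that these letters are not in the window.

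The neighbours on the other side did not follow. Ccl3 read 3.80 to 4.87 and Ccl4 5.91 to 6.94 over all arrays, and neither was called in any contrast. Ccl5, on the far side of Ccl9, had a different order of groups, described with the lymphocyte-linked genes.

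**Figure D2:**
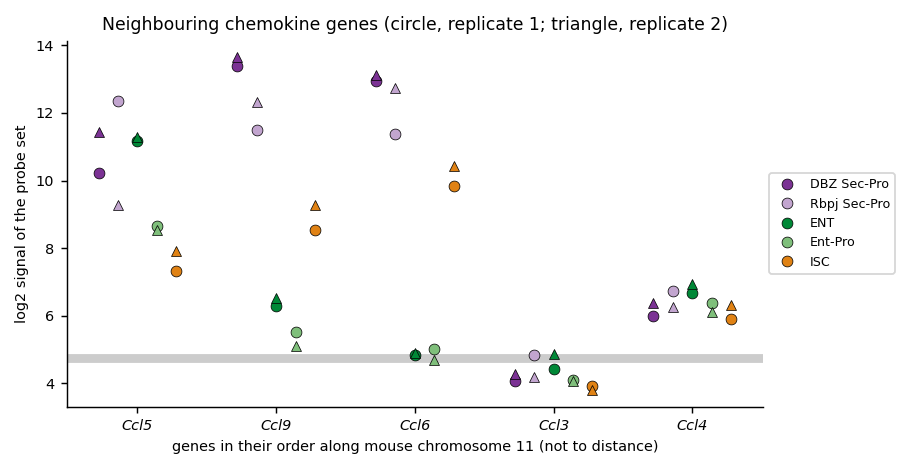
Log2 signal on each array of the 5 chemokine genes that lie beside each other on mouse chromosome 11, with groups by colour, replicates by shape and the near-background bound in grey. Ccl9 and Ccl6 are over 11 on all Sec-Pro arrays and under 7 on all ENT and Ent-Pro arrays, while Ccl3 and Ccl4 stay in narrow ranges.

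Cx3cl1 and Ccl20 were higher in villus enterocytes than in their crypt progenitors, Ccl28 was lower in secretory progenitors, and Ccl25 differed between the 2 secretory progenitor groups. Cx3cl1, or fractalkine, read 7.66 and 7.80 in DBZ Sec-Pro, 8.19 and 7.88 in Rbpj Sec-Pro, 9.73 and 9.33 in ENT, 7.71 and 7.52 in Ent-Pro and 6.66 and 6.49 in ISC. ENT was the highest group and ISC the lowest, and the 2 progenitor types lay between them. Cx3cl1 was 3.78-fold higher in ENT than in Ent-Pro (log2 difference 1.92 ± 0.17, SE; adjusted p = 8.25e-05), 2.48-fold higher in Sec-Pro than in ISC (adjusted p = 1.76e-04) and 2.05-fold higher in Ent-Pro than in ISC (adjusted p = 0.00293). Sec-Pro minus Ent-Pro was 0.27 (adjusted p = 0.223). With the leukocyte covariate, ENT minus Ent-Pro was 1.70 (adjusted p = 0.00173). Of the genes closest to it over the 10 arrays, Slc22a18 (r = 0.990), Slc39a9 (0.989) and Mdh2 (0.988) led. The other 2 Cx3cl1 probe sets read 6.84 and 6.79 in ENT, against 6.16 and 6.17 in Ent-Pro, and 5.28 and 5.24 in ENT, against 5.06 and 4.86 in Ent-Pro.

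Ccl20, the ligand of Ccr6, read 6.55 and 6.17 in DBZ Sec-Pro, 6.96 and 7.85 in Rbpj Sec-Pro, 8.58 and 8.39 in ENT, 7.65 and 7.01 in Ent-Pro and 8.19 and 8.26 in ISC. ENT and ISC were highest, and all 4 Sec-Pro arrays were below both ISC arrays. Ccl20 was 2.23-fold higher in ENT than in Ent-Pro (log2 difference 1.16 ± 0.30, SE; adjusted p = 0.0144), 2.54-fold lower in Sec-Pro than in ISC (adjusted p = 0.00293) and 2.06-fold lower in DBZ Sec-Pro than in Rbpj Sec-Pro (adjusted p = 0.0473). With the leukocyte covariate it was 1.80 higher in ENT than in Ent-Pro on the log2 scale (adjusted p = 0.00388), and the Sec-Pro minus ISC difference of -0.48 was not called (adjusted p = 0.359). Rbpj Sec-Pro alone minus ISC was -0.82 (adjusted p = 0.0503).

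Ccl28, a mucosal chemokine that binds Ccr10, read 6.32 and 5.49 in DBZ Sec-Pro, 6.39 and 6.68 in Rbpj Sec-Pro, 7.20 and 7.34 in ENT, 6.99 and 6.91 in Ent-Pro and 7.03 and 7.16 in ISC. All 4 Sec-Pro arrays were below all other arrays. It was 1.66-fold lower in the Sec-Pro than in the Ent-Pro arrays (log2 difference -0.73 ± 0.21, SE; adjusted p = 0.0344) and 1.84-fold lower in Sec-Pro than in ISC (adjusted p = 0.00787). For DBZ Sec-Pro alone against Ent-Pro the log2 difference was -1.05 (adjusted p = 0.0170) and for Rbpj Sec-Pro alone -0.42 (adjusted p = 0.221). Against ISC these were -1.19 (adjusted p = 0.0045) and -0.56 (adjusted p = 0.0822). Neither Ccl28 call held with the leukocyte covariate, at -0.34 against Ent-Pro (adjusted p = 0.485) and -0.34 against ISC (adjusted p = 0.508). With it, calls over all genes fell too, from 24.0% to 5.72% against Ent-Pro and from 45.2% to 19.0% against ISC. The marker mean itself differed between these groups, so a call lost with it, for Ccl28 or another gene, cannot be assigned to leukocytes. The part of leukocytes in the Ccl28 values was not tested. Ccl25, the ligand of Ccr9, read 12.00 and 11.39 in DBZ Sec-Pro, 12.57 and 12.43 in Rbpj Sec-Pro, 12.68 and 12.79 in ENT, 12.41 and 12.15 in Ent-Pro and 12.37 and 12.19 in ISC. It was called only in DBZ Sec-Pro minus Rbpj Sec-Pro, at 1.74-fold lower (log2 difference -0.80 ± 0.20, SE; adjusted p = 0.0293), and not without Rbpj Sec-Pro replicate 1 or DBZ Sec-Pro replicate 2. Against ISC, Ccl25 differed by -0.18 in Sec-Pro (adjusted p = 0.433), with -0.58 for DBZ Sec-Pro alone, which was called (adjusted p = 0.0497), and 0.22 for Rbpj Sec-Pro alone (adjusted p = 0.383). It differed by 0.00 in Ent-Pro (adjusted p = 0.998).

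**Figure D3:**
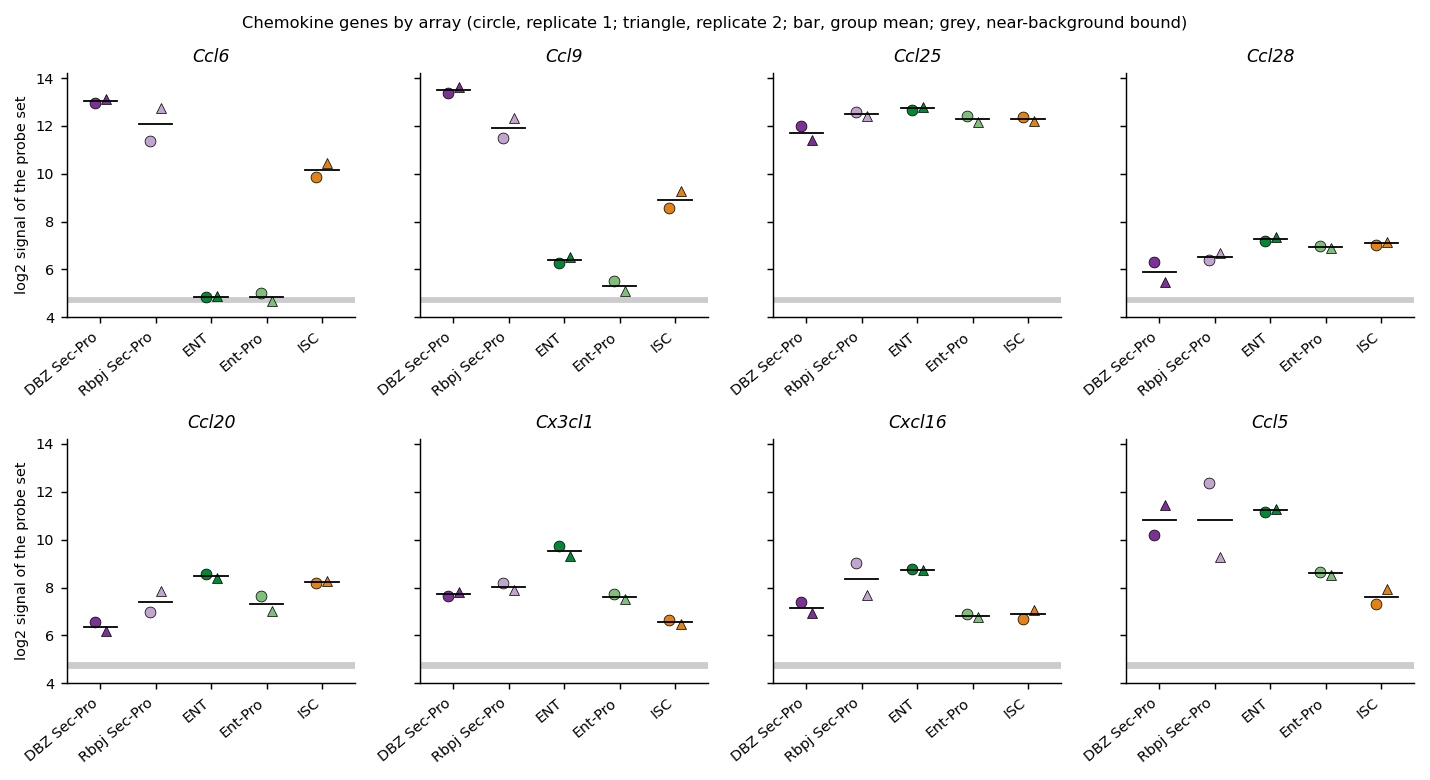
Log2 signal of 8 chemokine genes on each array, with circles and triangles for replicates 1 and 2, bars for group means and grey for the near-background bound. Ccl6 and Ccl9 are high in both Sec-Pro groups, Cx3cl1 is highest in ENT, Ccl25 spans 11.39 to 12.79, and Ccl5 differs by 3.07 between the Rbpj Sec-Pro replicates.

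Ccl5, a chemokine made by memory and cytotoxic T cells, moved with leukocyte markers. It read 10.21 and 11.43 in DBZ Sec-Pro, 12.35 and 9.28 in Rbpj Sec-Pro, 11.17 and 11.30 in ENT, 8.67 and 8.53 in Ent-Pro and 7.32 and 7.93 in ISC. The Rbpj Sec-Pro replicates were 3.07 apart, beside 2.02 for the leukocyte marker mean, and the DBZ Sec-Pro replicates 1.22 apart in the same direction as their markers. Ccl5 was 4.66-fold higher in Sec-Pro than in Ent-Pro (log2 difference 2.22 ± 0.70, SE; adjusted p = 0.0498), 9.17-fold higher in Sec-Pro than in ISC (adjusted p = 0.00551) and 6.21-fold higher in ENT than in Ent-Pro (adjusted p = 0.0298). Without the 2 Sec-Pro arrays high in leukocyte markers, Sec-Pro minus Ent-Pro was 1.15. The Sec-Pro arrays kept still had higher leukocyte marker means (7.39 and 6.93) than Ent-Pro (6.46 and 6.27), so that fit did not remove the marker difference. With the leukocyte covariate the differences were -0.051 for Sec-Pro minus Ent-Pro (adjusted p = 0.917), 0.08 for Sec-Pro minus ISC (adjusted p = 0.867) and 0.32 for ENT minus Ent-Pro (adjusted p = 0.387), and none was called. The genes closest to Ccl5 over the 10 arrays were Cd3g (r = 0.995), Gimap6 (0.990), Srgn (0.984), Cd3d (0.983) and Klrd1 (0.982), all known from lymphocytes or other blood cells. Of these, Cd3g, Cd3d and Klrd1 are themselves among the markers averaged in the leukocyte covariate, so they are not separate evidence.

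Cxcl16, the ligand of Cxcr6, was higher in ENT than in Ent-Pro, and was highest on the array with the most leukocyte marker signal. It read 7.40 and 6.93 in DBZ Sec-Pro, 9.01 and 7.68 in Rbpj Sec-Pro, 8.77 and 8.72 in ENT, 6.89 and 6.76 in Ent-Pro and 6.69 and 7.08 in ISC. ENT did not overlap with Ent-Pro, and Rbpj Sec-Pro replicate 1 was the highest array. Cxcl16 was 3.79-fold higher in ENT than in Ent-Pro (log2 difference 1.92 ± 0.37, SE; adjusted p = 0.00300). With the leukocyte covariate that difference was 1.21 (adjusted p = 0.0581). DBZ Sec-Pro replicate 2, high in leukocyte markers, had less Cxcl16 than replicate 1 by 0.47. Its closest genes were Cd3e (r = 0.978), a T cell receptor chain, Abhd2 (0.973) and Arpc2 (0.967). Cd3e is itself among the markers averaged in the leukocyte covariate.

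The interferon-inducible ligands of Cxcr3 varied most with Rbpj Sec-Pro replicate 1. Cxcl11 read 6.54 and 6.24 in DBZ Sec-Pro, 8.03 and 6.73 in Rbpj Sec-Pro, 6.87 and 7.20 in ENT, 6.55 and 6.30 in Ent-Pro and 6.04 and 5.95 in ISC, and was 1.85-fold higher in Sec-Pro than in ISC (adjusted p = 0.0395). That direction turned with the leukocyte covariate, to -0.12 (adjusted p = 0.856), and DBZ Sec-Pro alone minus ISC was 0.39 (adjusted p = 0.42). Its second probe set read 4.06 to 4.62 on every array. Cxcl10 read 5.89 and 5.76 in DBZ Sec-Pro, 7.15 and 6.27 in Rbpj Sec-Pro, 5.43 and 5.69 in ENT, 5.49 and 5.35 in Ent-Pro and 6.11 and 6.71 in ISC. It was 1.80-fold higher in Sec-Pro than in Ent-Pro (adjusted p = 0.0384) and 1.98-fold lower in Ent-Pro than in ISC (adjusted p = 0.0333). Without the 2 Sec-Pro arrays high in leukocyte markers, the Sec-Pro minus Ent-Pro difference of Cxcl10 was 0.66 (adjusted p = 0.0694). It was 0.30 with the leukocyte covariate (adjusted p = 0.573) and 0.41 for DBZ Sec-Pro alone (adjusted p = 0.377). Ent-Pro minus ISC was -1.19 for Cxcl10 with the covariate and stayed called (adjusted p = 0.00724). Cxcl9 was 7.31 on Rbpj Sec-Pro replicate 1 and 3.83 to 4.93 on the other 9 arrays, and was not called in any contrast.

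Xcl1, a chemokine of activated T and natural killer cells, read 5.12 and 5.29 in DBZ Sec-Pro, 6.23 and 5.41 in Rbpj Sec-Pro, 5.52 and 5.13 in ENT, 4.94 and 4.71 in Ent-Pro and 4.71 and 4.91 in ISC. The Sec-Pro arrays did not overlap with ISC, and Xcl1 was 1.63-fold higher in Sec-Pro than in ISC (adjusted p = 0.0291). With the leukocyte covariate the difference was -0.0566 (adjusted p = 0.907), and for DBZ Sec-Pro alone it was 0.40 (adjusted p = 0.266). With the same covariate, DBZ Sec-Pro minus Rbpj Sec-Pro was -1.15 for Cxcl16, -0.95 for Cxcl11, -0.86 for Cxcl10 and -0.59 for Xcl1. Each was called there (adjusted p of 0.0268, 0.0306, 0.0309 and 0.0472), and none of them in the fit without the covariate. In the latter fit the differences were -1.18, -0.99, -0.89 and -0.62 in that order. Without the 2 Sec-Pro arrays high in leukocyte markers, which left a single array in each Sec-Pro group, they were -0.29, -0.19, -0.38 and -0.29.

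The lymphocyte receptors Ccr9, Cxcr6 and Cxcr3 were highest on Rbpj Sec-Pro replicate 1 and were called in no contrast. Ccr9 read 6.27 and 7.03 in DBZ Sec-Pro, 7.85 and 4.82 in Rbpj Sec-Pro, 5.19 and 6.67 in ENT, 5.33 and 6.07 in Ent-Pro and 5.53 and 5.48 in ISC. Its probe set is of a type that may bind other transcripts, and the other 2 Ccr9 probe sets were also highest on Rbpj Sec-Pro replicate 1, at 5.80 and 6.67. Cxcr6 was 6.20 on that array, 4.38 on its partner and 3.82 to 5.14 elsewhere. Cxcr3 spanned 6.02 to 7.06. With the leukocyte covariate, Ccr9, Cxcr6, Cxcl9 and Ccr1 were called lower in ENT than in Ent-Pro, where 24.8% of all genes were called. Cxcl9 was then also called lower in Sec-Pro than in ISC, where 19.0% of all genes were called. Without the covariate, ENT minus Ent-Pro was 0.23 for Ccr9, 0.66 for Cxcr6, 0.03 for Cxcl9 and -0.38 for Ccr1. Sec-Pro minus ISC was 0.33 for Cxcl9 in that fit. The covariate thus turned the direction of Ccr9, Cxcr6 and Cxcl9, whose Rbpj Sec-Pro replicates differed by 3.03, 1.83 and 3.48. How far that pair set the covariate's effect was not tested. Between the Rbpj Sec-Pro replicates, 6 of the 49 genes (Ccl5, Ccr9, Cxcl9, Cxcr6, Cxcl16 and Cxcl11) were over 1 log2 unit higher in replicate 1, as were 2.43% of all genes, and 2 (Ccl6 and Ccl27a) were over 1 lower, as were 1.54% of all genes.

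**Figure D4:**
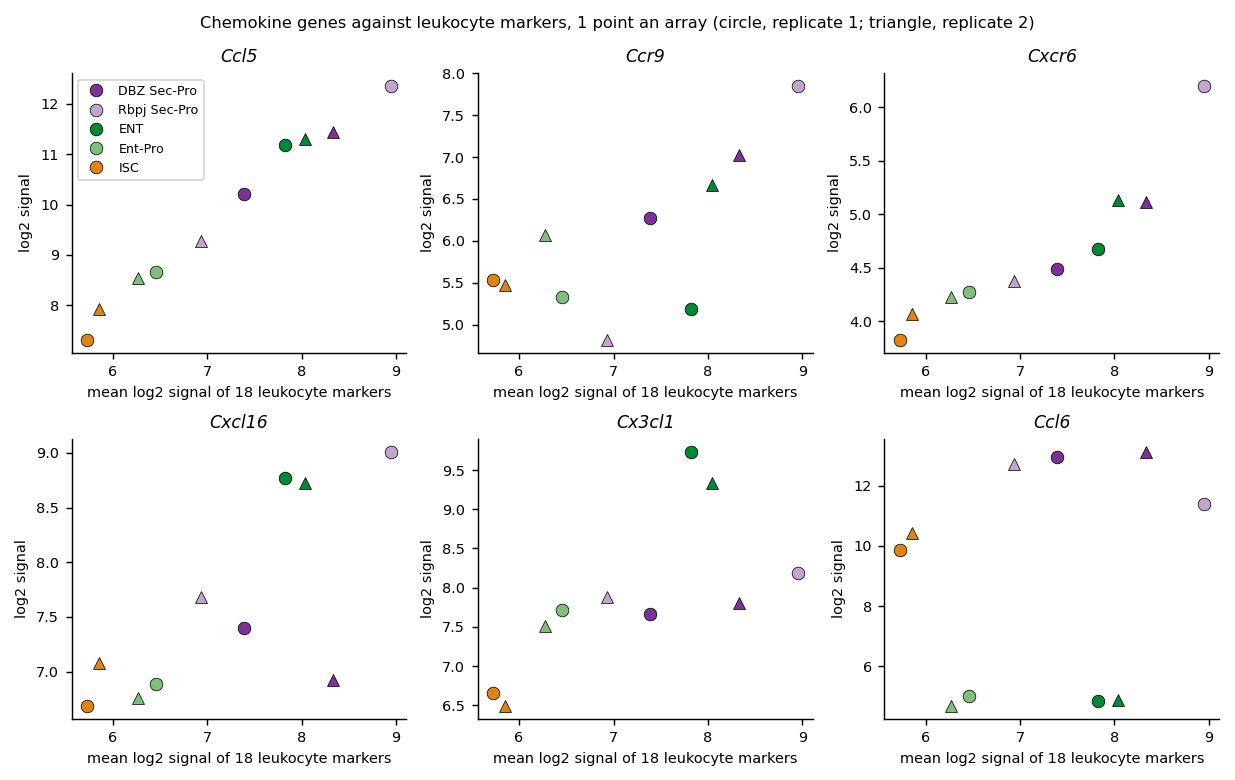
Log2 signal of 6 chemokine genes on each array (vertical axes) against the mean log2 signal of 18 leukocyte markers on that array (horizontal axes). Ccl5 lies along a line from ISC at the low end to Rbpj Sec-Pro replicate 1 at the high end, whereas Ccl6 is high at both low and high marker levels in Sec-Pro and ISC and near 5 in ENT and Ent-Pro.

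Ccl27a differed between the 2 secretory progenitor groups. This gene, in skin a keratinocyte chemokine that binds Ccr10, read 6.24 and 6.29 in DBZ Sec-Pro, 3.72 and 4.82 in Rbpj Sec-Pro, 4.54 and 5.27 in ENT, 4.57 and 4.12 in Ent-Pro and 6.97 and 6.39 in ISC. It was higher in DBZ Sec-Pro than in Rbpj Sec-Pro by a log2 difference of 2.00 (adjusted p = 0.0119), for which no fold is given because 1 of the 2 Rbpj Sec-Pro arrays was under the near-background bound. Sec-Pro minus ISC was -1.42 (adjusted p = 0.00706), with -2.41 for Rbpj Sec-Pro alone (adjusted p = 0.00102), -0.42 for DBZ Sec-Pro alone, which was not called (adjusted p = 0.429), and -0.58 with the leukocyte covariate (adjusted p = 0.472). It was at least 4.05-fold lower in Ent-Pro than in ISC (adjusted p = 0.00253), the bound being set by the near-background level. The probe set is of a type that may bind other transcripts. The 2 probe sets annotated to several Ccl27 copies followed it, with the first at 7.96 and 8.20 in DBZ Sec-Pro, against 6.12 and 6.52 in Rbpj Sec-Pro. The second read 7.30 and 6.94 in DBZ Sec-Pro, against 4.89 and 5.75 in Rbpj Sec-Pro.

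Cxcl1, the neutrophil attractant, read 4.57 and 4.51 in DBZ Sec-Pro, 4.79 and 4.31 in Rbpj Sec-Pro, 4.35 and 4.27 in ENT, 4.67 and 4.43 in Ent-Pro and 4.88 and 5.73 in ISC, and was lower in Sec-Pro than in ISC by a log2 difference of -0.76 (adjusted p = 0.0231), for which no fold is given because 3 of the 4 Sec-Pro arrays were under the bound. Ccl2, the monocyte attractant, read 4.51 and 4.62 in DBZ Sec-Pro, 4.54 and 4.59 in Rbpj Sec-Pro, 4.87 and 4.72 in ENT, 4.70 and 4.79 in Ent-Pro and 4.79 and 5.08 in ISC, and was at least 1.19-fold lower in Sec-Pro than in ISC (adjusted p = 0.0289). The receptor Cxcr2 was below the bound on every array, so its called difference of -0.40 between Sec-Pro and ISC (adjusted p = 0.0457) carries no fold. Ccl1, a ligand of Ccr8, read 4.30 and 4.20 in DBZ Sec-Pro, 4.71 and 4.77 in Rbpj Sec-Pro, 4.85 and 4.93 in ENT, 4.59 and 4.57 in Ent-Pro and 4.55 and 4.57 in ISC. It was at least 1.17-fold higher in ENT than in Ent-Pro (adjusted p = 0.0492) and at least 1.02-fold lower in DBZ Sec-Pro than in Rbpj Sec-Pro (adjusted p = 0.0208).

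Receptors were called in DBZ Sec-Pro minus Rbpj Sec-Pro and, for Cxcr2, in Sec-Pro minus ISC. Ccr6, the receptor of Ccl20, read 5.44 and 6.04 in DBZ Sec-Pro, 5.10 and 4.89 in Rbpj Sec-Pro, 5.59 and 5.45 in ENT, 5.62 and 5.47 in Ent-Pro and 5.27 and 5.52 in ISC, a 1.68-fold higher level in DBZ Sec-Pro than in Rbpj Sec-Pro (adjusted p = 0.0372). The mean of 4 B and plasma cell markers was 6.00 and 7.24 in DBZ Sec-Pro, against 5.72 and 5.35 in Rbpj Sec-Pro, and the part of those cells in the Ccr6 result was not tested. Ccr2 read 5.13 and 4.38 in DBZ Sec-Pro, against 4.01 and 3.84 in Rbpj Sec-Pro, and 4.07 to 4.28 on the other arrays. It was higher in DBZ Sec-Pro by a log2 difference of 0.83 (adjusted p = 0.0325). No fold is given because DBZ Sec-Pro replicate 2 was under the bound. The other 2 Ccr2 probe sets read 3.45 to 3.92 and 3.72 to 4.27 over all arrays. Ccr4 read 4.38 and 4.13 in DBZ Sec-Pro, against 5.04 and 5.06 in Rbpj Sec-Pro, and 4.17 to 4.80 on the other arrays (at least 1.26-fold lower, adjusted p = 0.0315). Ccr1l1 read 4.31 and 4.28 in DBZ Sec-Pro, against 4.81 and 4.78 in Rbpj Sec-Pro, and 4.20 to 4.45 on the other arrays (at least 1.06-fold lower, adjusted p = 0.0229).

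Counted over all 49, the share of chemokine genes called was below that of all genes in each contrast but DBZ Sec-Pro minus Rbpj Sec-Pro, where it was near it. In Sec-Pro minus Ent-Pro, 5 were called, 10.2% of the members beside 24.0% of all genes: Ccl6, Ccl9, Ccl5 and Cxcl10 higher, as were 9.27% of all genes, and Ccl28 lower, as were 14.7%. In Sec-Pro minus ISC, 12 were called (24.5%, beside 45.2% of all genes), with Ccl9, Ccl6, Ccl5, Cx3cl1, Cxcl11 and Xcl1 higher (18.0% of all genes) and Ccl2, Ccl20, Ccl27a, Ccl28, Cxcl1 and Cxcr2 lower (27.2%). In Ent-Pro minus ISC, 5 were called (10.2%, beside 25.5% of all genes), Cx3cl1 higher (12.1% of all genes) and Ccl6, Ccl9, Ccl27a and Cxcl10 lower (13.5%). In ENT minus Ent-Pro, 6 were called (12.2%, beside 38.7% of all genes): Ccl1, Ccl5, Ccl9, Ccl20, Cx3cl1 and Cxcl16, all higher, as were 18.5% of all genes, while 20.2% were lower. Ccl9 read 6.28 and 6.53 in ENT, against 5.51 and 5.12 in Ent-Pro (2.14-fold, adjusted p = 0.0203). On its second probe set these arrays lay near or under the near-background bound. In DBZ Sec-Pro minus Rbpj Sec-Pro, 9 were called (18.4%, beside 16.4% of all genes), Ccl9, Ccl27a, Ccr2 and Ccr6 higher (9.34% of all genes) and Ccl1, Ccl20, Ccl25, Ccr1l1 and Ccr4 lower (7.08%). Against Ent-Pro, 18.6% of all genes were called with DBZ Sec-Pro alone and 26.3% with Rbpj Sec-Pro alone. Against ISC these shares were 36.2% and 47.1%. With the leukocyte covariate, 5.72%, 19.0%, 25.9%, 24.8% and 20.1% of all genes were called in the 5 contrasts, in the order given. The median log2 differences of the 49 genes in the 5 contrasts, in that order, were -0.00, 0.05, 0.03, 0.16 and -0.01, beside -0.09, -0.11, -0.02, 0.02 and 0.06 over all genes. The contrasts share groups, so their counts are not independent.

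**Figure D5:**
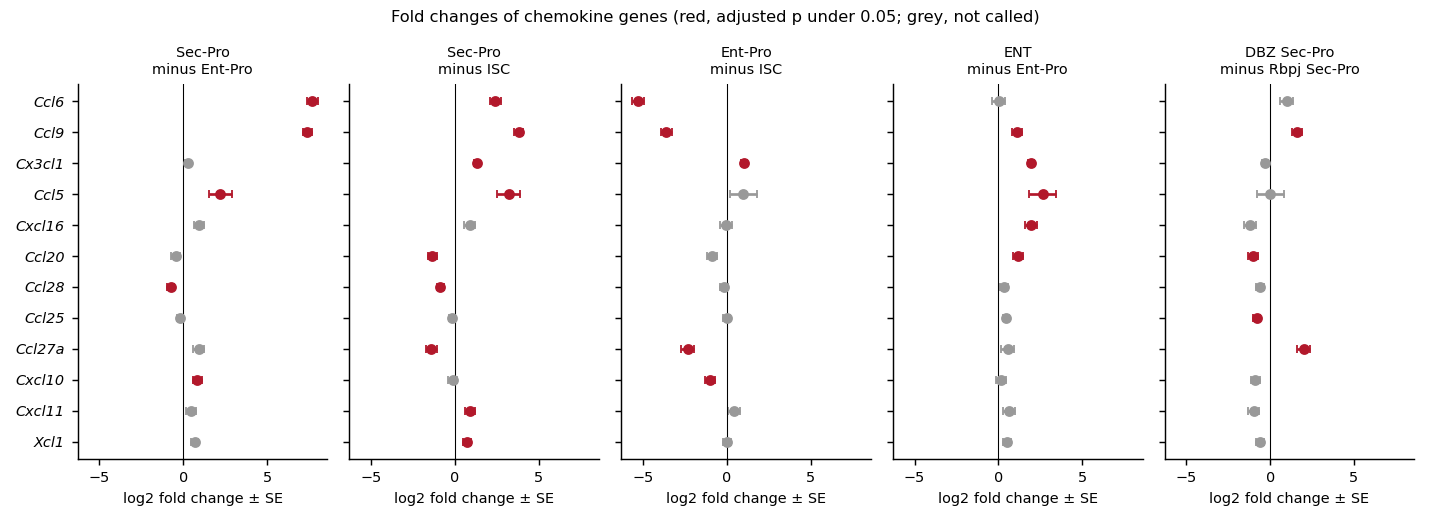
Log2 differences with their standard errors for 12 chemokine genes in the 5 contrasts, red where the adjusted p was under 0.05 and grey otherwise. Ccl6 and Ccl9 lie at 7.70 and 7.40 in Sec-Pro minus Ent-Pro, all red points of ENT minus Ent-Pro are above 0, and red points lie on both sides of 0 in DBZ Sec-Pro minus Rbpj Sec-Pro.

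Leaving out each array in turn kept 12 of the 37 calls throughout: Ccl6 and Ccl9 in Sec-Pro minus Ent-Pro, Sec-Pro minus ISC and Ent-Pro minus ISC, Cx3cl1 in its 3 contrasts, Ccl20 in Sec-Pro minus ISC, Ccl27a in Ent-Pro minus ISC and Cxcl16 in ENT minus Ent-Pro. In Sec-Pro minus Ent-Pro, the call of Ccl5 was lost without any 1 array outside Rbpj Sec-Pro, with a difference of 1.45 to 2.99 over the omissions. That of Cxcl10 was lost without any DBZ Sec-Pro, ENT or Ent-Pro array, and that of Ccl28 without Rbpj Sec-Pro replicate 1 or any Ent-Pro or ISC array. In Sec-Pro minus ISC, ISC replicate 1 decided the calls of Ccl5 and Ccl27a, and ISC replicate 2 that of Ccl28. Ccl2 was lost without DBZ Sec-Pro replicate 1 or ISC replicate 2, Cxcl1 without DBZ Sec-Pro replicate 2 or ISC replicate 2, and Xcl1 without DBZ Sec-Pro replicate 2 or any ISC array. Cxcl11 was lost without any 1 array outside Rbpj Sec-Pro, and Cxcr2 without any array but Rbpj Sec-Pro replicate 1. In Ent-Pro minus ISC, Cxcl10 was lost without any DBZ Sec-Pro or Ent-Pro array or ISC replicate 2. In ENT minus Ent-Pro, Ccl5 was lost without any array of either group, Ccl20 without ENT replicate 1 or Ent-Pro replicate 2, Ccl9 without any ENT array or Ent-Pro replicate 2, and Ccl1 without any array outside Rbpj Sec-Pro.

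The 29 genes called in no contrast were mostly dim. Of these, 20 were under 6 on every array: Ccl3, Ccl7, Ccl8, Ccl11, Ccl12, Ccl22, Cxcl2, Cxcl5, Cxcl12, Cxcl14, Cxcl15, Ccr1, Ccr3, Ccr7, Ccr8, Ccr10, Cx3cr1, Cxcr4, Cxcr5 and Xcr1. Among these are Ccr10, the receptor of Ccl28, at 5.19 to 5.84, and Cx3cr1, the receptor of Cx3cl1, at 4.74 to 5.52. Cxcr4 was above the bound on 1 array, DBZ Sec-Pro replicate 2, at 5.05. The other 9 reached 6 on some array: Ccr9, Cxcl9, Cxcr3, Cxcr6, Ccl4 (5.91 to 6.94), Ccl17 (5.17 to 6.11), Ccl24 (6.09 to 6.83), Cxcl13 (5.51 to 6.81) and Cxcl17 (6.03 to 6.85). Cxcl13, the B cell follicle chemokine, had a second probe set that read 6.64 and 5.67 in DBZ Sec-Pro, 4.38 and 5.01 in Rbpj Sec-Pro and 3.99 to 4.67 on the other arrays.

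Lists of related pathway genes were read beside the members. Of 12 genes of receptor signalling, 4 were called in Sec-Pro minus Ent-Pro, all higher, 6 were higher in Sec-Pro than in ISC and 3 lower, 2 were higher in Ent-Pro than in ISC and 3 lower, 8 were called in ENT minus Ent-Pro, all higher, and 0 were called in DBZ Sec-Pro minus Rbpj Sec-Pro. Of all genes, 24.0%, 45.2%, 25.5%, 38.7% and 16.4% were called in those contrasts. Rgs2, a brake on G protein signalling, read 9.39 and 9.78 in DBZ Sec-Pro, 8.48 and 9.36 in Rbpj Sec-Pro, 8.66 and 8.55 in ENT, 5.38 and 5.15 in Ent-Pro and 7.42 and 7.72 in ISC. It was 15.9-fold higher in Sec-Pro than in Ent-Pro (adjusted p = 1.54e-05) and 10.1-fold higher in ENT than in Ent-Pro (adjusted p = 5.76e-05). Rac2, Pik3cg and Vav1, best known from blood cells, were higher in ENT than in Ent-Pro by 7.12-fold, 5.65-fold and 3.96-fold, on arrays whose leukocyte marker means were also higher (7.82 and 8.04 in ENT, against 6.46 and 6.27 in Ent-Pro). Pik3cg did not follow those markers within Rbpj Sec-Pro, reading 5.69 and 7.15 on replicates 1 and 2. The mean of 5 tuft cell markers read 6.53 and 9.05 on the same arrays, and 9.40 and 8.95 in ENT, against 6.09 and 5.54 in Ent-Pro. The part of leukocytes and tuft cells in these differences was not tested. Of 5 shedding and cleavage enzymes, Dpp4, which trims several chemokines, was higher in Sec-Pro than in Ent-Pro (1.59-fold, adjusted p = 0.0220) and than in ISC (3.59-fold, adjusted p = 5.71e-05), and in ENT than in Ent-Pro (2.29-fold, adjusted p = 0.00122). Mmp7, a Paneth cell protease, was 10.1-fold higher in Sec-Pro than in Ent-Pro (adjusted p = 0.00920). Neither Adam10 nor Adam17, the sheddases of Cx3cl1 and Cxcl16, was called.

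Of 10 measured NF-kB and interferon regulators, 5 were called in Sec-Pro minus Ent-Pro (2 of them higher) and 8 in Sec-Pro minus ISC (1 of them higher), where 24.0% and 45.2% of all genes were called and 14.7% and 27.2% were lower. Against ISC, Sec-Pro had 2.86-fold less Nfkb2, 2.46-fold less Nfkbia and 2.25-fold less Relb (adjusted p of 2.49e-04, 9.75e-05 and 6.67e-04). Irf7, an interferon response factor, was 2.46-fold higher in Sec-Pro than in Ent-Pro (adjusted p = 0.0123), 3.95-fold higher in ENT than in Ent-Pro (adjusted p = 0.00132) and 2.99-fold lower in DBZ Sec-Pro than in Rbpj Sec-Pro (adjusted p = 0.0157). Of 6 atypical receptors, Ccrl2 and Ackr4 were higher in ENT than in Ent-Pro by 1.78-fold and 1.53-fold, and Ackr2, a scavenger of CC chemokines, was 1.90-fold higher in DBZ Sec-Pro than in Rbpj Sec-Pro and 1.44-fold lower in Sec-Pro than in ISC. Of 8 other chemokine-like genes, Mif, a cytokine that binds chemokine receptors, was 3.19-fold lower in ENT than in Ent-Pro and 1.69-fold lower in the Sec-Pro than in the Ent-Pro arrays. Cmtm7 was 2.83-fold higher in Sec-Pro than in Ent-Pro and 1.80-fold lower in ENT than in Ent-Pro. Because ISC alone was sorted and alone had the raised 3′ to 5′ signal, cell type, sorting and the source of that signal cannot be told apart in the contrasts with ISC.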

How the data were processed

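Total RNA was hybridised to 1 array a sample, and the values the authors deposited are log2 signals of 22690 probe sets, between 2.90 and 15.18. RMA and MAS5 are both named per the submitters' processing notes, and which of them made these values is not given in the sources used here. No array was left out or imputed. Probe sets were named from the platform annotation: 20393 had 1 gene symbol, 691 several and 1606 none. Of the probe sets of a gene, the one with the highest mean over the 10 arrays was used, giving 12393 genes. limma 3.58.1 (R 4.3.3) was fitted to all 10 arrays with 5 group means, Sec-Pro being the mean of both Sec-Pro groups, with 5 residual degrees of freedom. p-values were adjusted by the Benjamini-Hochberg method over all genes at a threshold of 0.05. The script was tested on simulated data. Array precision is limited by 2 arrays a group. A fold near background was bounded at 1 log2 unit above the absent-control probe sets.

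The members and lists were chosen with earlier results of these data known. Genes called in at least 1 contrast were named with every array's value, other members by range, and of each pathway list up to 3 called genes a contrast. Alternatives were other scalings, a filter on dim genes, other probe-set rules, an intensity trend, the replicate number as a block, fits to the compared groups alone, each Sec-Pro group alone, the 4 Sec-Pro arrays as 1 group, and each array left out. The leukocyte covariate, and the fit without both Sec-Pro arrays high in leukocyte markers, were added after seeing the data. Promoter sequences are RefSeq's (GRCm38.p6). The build of the array annotation is not given in the sources used here. Figures were drawn with matplotlib 3.10.9.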

Additional observations from a re-analysis of the deposited data

Results flagged for a closer look

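The effects of the 2 ways of obtaining secretory progenitors, each read against the same Ent-Pro arrays, differed by a test of the difference for 9 chemokine genes. On the log2 scale, DBZ Sec-Pro minus Rbpj Sec-Pro was 2.00 for Ccl27a, 1.60 for Ccl9, 0.83 for Ccr2 and 0.75 for Ccr6, all higher in DBZ Sec-Pro. It was -1.04 for Ccl20, -0.80 for Ccl25, -0.79 for Ccr4, -0.50 for Ccr1l1 and -0.49 for Ccl1, all lower in DBZ Sec-Pro. The calls of Ccl9 and Ccl27a were lost without DBZ Sec-Pro replicate 2, and those of Ccl1 and Ccl25 without that array or Rbpj Sec-Pro replicate 1. Those of Ccr1l1 and Ccr4 were lost without any DBZ Sec-Pro array or Rbpj Sec-Pro replicate 1, and that of Ccr4 also without Rbpj Sec-Pro replicate 2. Ccl20 was called in 1 of the 10 omissions, Ccr6 in 1 and Ccr2 in 3. Ccl1, Ccr1l1, Ccr2 and Ccr4 were near background.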

How the results depend on the processing

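The 37 calls were read again under 773 alternative values. Of these, 576 kept direction and call, 193 kept direction and lost the call, and 4 reversed. The calls of Ccl6 and Ccl9 in Sec-Pro minus Ent-Pro, Sec-Pro minus ISC and Ent-Pro minus ISC, and that of Ccl27a in Ent-Pro minus ISC, were kept under all alternatives run. The reversed values were -0.051 for Ccl5 in Sec-Pro minus Ent-Pro with the leukocyte covariate, and, in Sec-Pro minus ISC, -0.0566 for Xcl1 and -0.12 for Cxcl11 with that covariate and -0.25 for Cxcl11 with its dimmest probe set. The cause was not tested. In Sec-Pro minus Ent-Pro, the 5 calls became 3 with the replicate block, 2 in a fit to the groups compared, 2 with the 4 Sec-Pro arrays as 1 group, 2 with the leukocyte covariate and 8 with Rbpj Sec-Pro alone. In Sec-Pro minus ISC, the 12 calls became 6 among genes above the median level, where fewer genes were tested, and 4 with the covariate. In ENT minus Ent-Pro, the 6 calls became 3 with the dimmest probe sets, 11 in a fit to the groups compared and 12 without both Sec-Pro arrays high in leukocyte markers. In DBZ Sec-Pro minus Rbpj Sec-Pro, the 9 calls became 3 among genes above the median level, 14 with the covariate, 1 without both arrays and 0 in a limma fit to the groups compared, where 13 members had an unadjusted p under 0.05. Leaving out 1 array gave 2 to 12 calls in Sec-Pro minus Ent-Pro, 7 to 17 in Sec-Pro minus ISC, 4 to 7 in Ent-Pro minus ISC, 2 to 12 in ENT minus Ent-Pro and 1 to 16 in DBZ Sec-Pro minus Rbpj Sec-Pro, with the lone array of a group assumed to vary like the others. The highest counts came without Rbpj Sec-Pro replicate 2 in Sec-Pro minus Ent-Pro (12), in DBZ Sec-Pro minus Rbpj Sec-Pro (16) and, with the same count without replicate 1, in ENT minus Ent-Pro (12). Same-numbered replicates of different groups did not deviate together (correlations of -0.19 to 0.17, 1 of 10 over 0.1), so the replicate numbers were not taken as pairs. Signal near background limits the dim receptors.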
